A study of Rattus norvegicus with 7 samples.

Results

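The V1R gene models on chromosome 4 below 100 Mb form a compact receptor cluster with 1 distant intact gene and 1 distant pseudogene fragment. They were taken from the block of 224 V1R models that the authors placed ahead of the genome-ordered annotation, by chromosome and lowest start alone. The rule uses no expression values, although it was chosen with earlier results of these data known. This gave 34 models of the 224, among 29630 models in all. Of these, 23 counted as intact genes (of 109 intact V1R genes) and 11 as pseudogenes (of 115). Names with "-ps" marked 8 of the pseudogenes, and the other 3 carried an Ensembl identifier only and were assigned by their place among the pseudogene rows. Of the intact genes, only NG_Vom1r4x2 carried a name given by the authors.

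RNA was sequenced from vomeronasal epithelia of 7 male rats of the inbred LEW/Crl strain, 8 weeks old, with 1 library per rat; blood was flushed out with heparin under anaesthesia before dissection. There was a single group, and classes of genes were therefore set against each other inside each rat, with the spread taken over rats. The libraries held 64085829 to 74924005 counts each. The tissue label was not checked against marker genes, because the files do not pair identifiers with gene symbols.

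V1R receptors are G protein-coupled receptors of the vomeronasal organ, a chemosensory structure of the nasal cavity that detects social and other chemical signals. They are made by sensory neurons of the apical layer, which signal through an inhibitory-type G protein and the Trpc2 channel, and a mature neuron as a rule uses a single receptor gene. The coding sequence of a V1R gene usually lies in a single exon, and the genes sit in clusters mixed with copies that have lost an intact reading frame. In whole tissue, fewer neurons using a gene and less RNA per neuron cannot be told apart.

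The stretch had the layout of such a cluster. On the RGSC3.4 assembly, 32 of the 34 models lay between 85946838 and 87100294 on chromosome 4, a span of 1.15 Mb, with a median of 33.4 kb from one start to the next. This cluster held 22 intact genes and 10 pseudogenes, and 29 of the 32 were on the plus strand. All 34 models had a single exon. The 23 intact models measured 894 to 945 bases, each divisible by 3 (coding length without UTRs), against 90 to 981 bases in the 11 pseudogenes, 6 of which were divisible by 3. Outside the cluster lay the intact gene ENSRNOG00000030085 (96415882–96416799, minus strand), 9.32 Mb from the nearest intact V1R gene, and the 90-base fragment NG_Vom1rn-ps69 (14437655–14437744, minus strand).

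Receptor transcripts from the stretch were rare in the tissue but present in every rat. The 34 models together took 0.00845% ± 0.00139 of all counts (SD, n = 7). The 23 intact genes held 15.4% ± 0.269 of the counts on all intact V1R genes (SD, n = 7), while making up 21.1% of those genes. This share ran from 14.9% in rat 2 (Wilson score 95% interval 14.6% to 15.2%) to 15.8% in rat 4 (15.4% to 16.1%), so that the intervals of these rats did not overlap. The intervals cover counting error only, and reads without molecular identifiers are not independent molecules. A mean intact gene of the stretch had 3.46 CPM (counts scaled to a common library total), against 5.10 CPM for the 86 intact V1R genes elsewhere. The medians over genes ran the other way, at 3.10 CPM in the stretch and 2.86 CPM elsewhere.

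**Figure D1:**
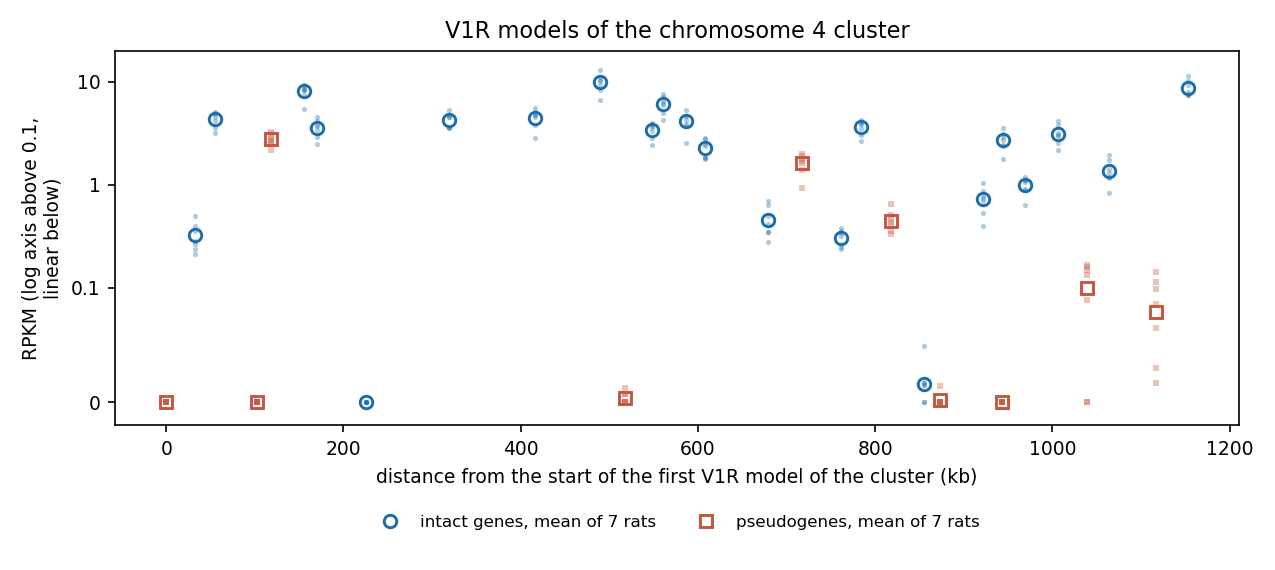
Level of each of the 32 V1R models of the cluster (RPKM, log axis above 0.1 and linear below) against its distance in kb from the start of the first model. Open circles are means of intact genes, open squares means of pseudogenes, and small points the 7 rats. Intact genes mostly lie between 0.306 and 9.86 RPKM, with 2 at or near 0 among them, and pseudogenes mostly lie at or near 0.

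Detection required 10 or more counts in 4 or more rats, and 56.3% of all 29630 models met it. Of the 23 intact genes 21 were detected, or 91.3%, against 94.2% of the 86 other intact V1R genes. Of the 11 pseudogenes 3 were detected, or 27.3%, against 12.5% of the 104 V1R pseudogenes elsewhere. Single-exon models outside the V1R block within the length range of all intact V1R genes (861 to 1068 bases), 1296 in number, were detected in 12.5% of cases. The share of intact genes thus lay near that of the family elsewhere.

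Among the intact receptors, expression was concentrated in a few genes. The highest 5 made up 54.1% of the summed CPM of the 23, and the lowest 7 made up 3.25%. Mean levels of 12 genes were at or above 3 CPM, those of 4 between 1 and 3 CPM and those of 7 below 1 CPM. The highest detected gene exceeded the lowest detected one 47.9-fold in CPM.

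The gene that stands alone was also the most abundant receptor of the stretch. ENSRNOG00000030085 had a lowest value of 11.1, a median of 14.5 and a highest value of 18.6 RPKM (CPM divided by the model length in kb), with a mean of 14.4 ± 2.26 (SD, n = 7). It ranked 7 among the 109 intact V1R genes by mean CPM and supplied 16.6% of the signal of the 23. Its counts, 677 to 1104 per rat, were whole in every rat, with no fraction from a shared read. In each of the 7 rats it lay above every other intact gene of the stretch, by 1.32-fold to 1.57-fold over the highest of them. Its level exceeded the mean of the 22 cluster genes by 2.90 ± 0.0876 in log2(RPKM + 0.1) (SD, n = 7), higher in 7 of 7 rats (two-sided exact sign-flip permutation p = 0.0156, adjusted 0.0156 over 5 tests). That p is the smallest that 7 rats can give, and with 1 gene standing alone it describes this gene in these rats.

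The most abundant intact V1R genes inside the cluster were a group of 3. ENSRNOG00000033297 (86435862–86436779) had 6.67, 10.2 and 12.9 RPKM as its lowest, median and highest rat, ENSRNOG00000031987 (87099401–87100294) had 7.40, 7.91 and 11.5, and ENSRNOG00000031729 (86102381–86103292) had 5.49, 8.41 and 9.25. Their ranges overlapped widely. In the order of mean levels ENSRNOG00000033297 exceeded ENSRNOG00000031987 in 6 of 7 rats (sign-flip test, exact p = 0.109, adjusted 0.168 over the 20 pairs of neighbours in that order), and ENSRNOG00000031987 exceeded ENSRNOG00000031729 in 4 (p = 0.359, adjusted 0.513). ENSRNOG00000031729 lay above the next gene, ENSRNOG00000031077 (86507719–86508651, 6.09 ± 1.17 RPKM, SD, n = 7), in 7 of 7 rats (exact permutation p = 0.0156, adjusted 0.0446). These genes sit near both ends and in the middle of the cluster.

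A middle group of genes could not be put in order. ENSRNOG00000030370 had 4.50 ± 0.909 RPKM, ENSRNOG00000030230 had 4.34 ± 0.721, ENSRNOG00000032743 had 4.26 ± 0.688 and ENSRNOG00000033985 had 4.16 ± 0.883 (SD, n = 7 each). Each neighbouring pair of these 4 kept its order in only 3 or 4 of the 7 rats. ENSRNOG00000033296, the last of the 10 highest by CPM, had 3.60 ± 0.575 RPKM, and ENSRNOG00000038498 stood beside it with 3.58 ± 0.728 (SD, n = 7 each). Over the 21 detected intact genes, 7 of the 20 pairs of neighbours in the order of levels kept that order in all 7 rats, with adjusted exact permutation p = 0.0446 each. The order was taken from the same values that were tested. Each of the 7 pairs had the smallest exact permutation p that 7 rats can give, 0.0156, so the adjusted value depends on how many pairs reached it. The other 13 pairs did not pass the test, which does not show that their levels are equal. The named gene NG_Vom1r4x2, at 2.28 ± 0.463 RPKM (SD, n = 7), was the only intact gene of the cluster on the minus strand.

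**Figure D2:**
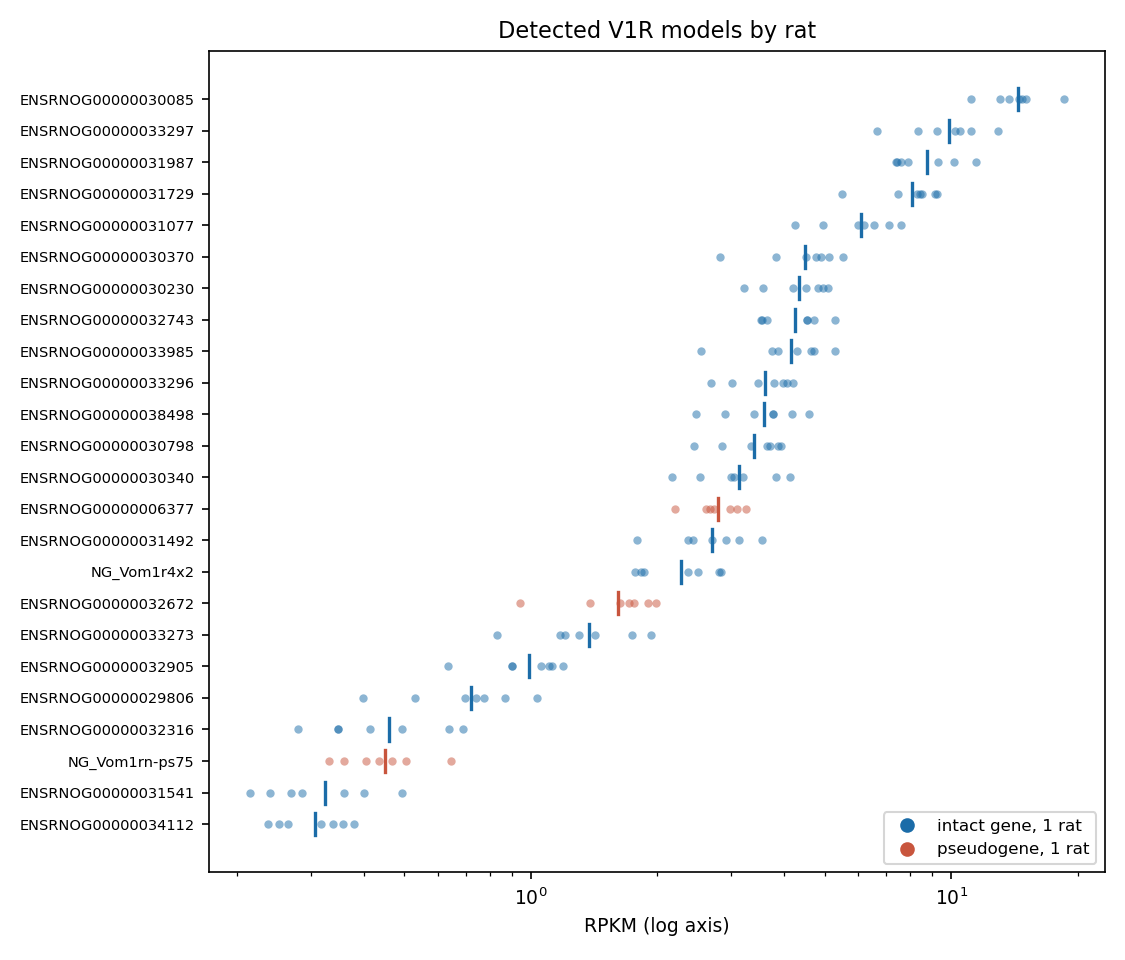
Levels of the 24 detected models (RPKM, log axis) in each of the 7 rats as points, with vertical bars at the means. ENSRNOG00000030085 stands at the top with a mean of 14.4 RPKM, and the pseudogenes ENSRNOG00000006377 and ENSRNOG00000032672 lie among the intact genes.

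A pair of intact models gave almost no reads. ENSRNOG00000031323 (86172617–86173516) had no count in any of the 7 rats, so that a level of at most 0.00622 CPM (3 counts over the 7 libraries) is allowed. That bound covers counting error only, and whether reads of this gene were lost in mapping was not tested. ENSRNOG00000029435 (86801995–86802891) had 1 count in 4 rats, 3 counts in 1 rat and none in 2 rats, a mean of 0.0146 CPM. Both have a length divisible by 3 (900 and 897 bases) and stand between detected genes, with the closest intact neighbour at 55.2 kb and at 65.6 kb. Of the 109 intact V1R genes, only ENSRNOG00000031323 had no count in any rat.

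Intact genes that adjoin each other on the chromosome often differed several-fold in level. Consecutive intact genes of the cluster lay 11.9 to 99.4 kb apart (21 pairs, median 56.6 kb). In 17 pairs both were detected, and the higher exceeded the lower by a median of 2.28-fold in mean RPKM. A difference of more than 2-fold held in every rat for 8 of the 17 pairs, and one of more than 5-fold for 3 pairs. By contrast 3 pairs stayed under 2-fold in every rat.

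Among the 17 pairs with both genes detected, the widest contrast was at the low-coordinate end. ENSRNOG00000030230 had 4.34 ± 0.721 RPKM, and ENSRNOG00000031541, 21.4 kb away on the same strand, had 0.323 ± 0.0998 (SD, n = 7 each), a 13.4-fold difference that reached 18.9-fold in a single rat. The values of this pair did not overlap, at 3.21 to 5.09 RPKM against 0.215 to 0.495 RPKM. Next in size among these pairs was ENSRNOG00000033296, at 3.60 RPKM, beside ENSRNOG00000034112, at 0.306 ± 0.0558 RPKM (SD, n = 7) and 21.3 kb away, with 11.8-fold between them. For the third of them ENSRNOG00000031987, at 8.74 RPKM, exceeded ENSRNOG00000033273, at 1.37 ± 0.368 RPKM (SD, n = 7) and 88.4 kb away, 6.37-fold. In all 3 pairs both genes are on the plus strand. These pairs were picked by size, and no test is given for them.

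Levels were also set out by position, splitting the 22 cluster genes at the middle of their order after the values had been seen. The 11 genes from 85979746 to 86533811 had a median of 2.82 to 4.90 RPKM in single rats, against 0.833 to 1.93 RPKM in the 11 genes from 86555258 to 87100294. The ratio of these medians lay between 2.34 and 4.50 in the 7 rats. The gene at the far end of the second set, ENSRNOG00000031987, was nevertheless among the most abundant. The split is a description only and was not tested.

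Of the 11 pseudogenes, 4 had no count in any rat and 4 more stayed below the detection call. ENSRNOG00000006377 (86064767–86065726, plus strand) was the highest of the 11 in each of the 7 rats, with a lowest value of 2.20, a median of 2.72 and a highest value of 3.25 RPKM. Its mean of 2.79 ± 0.350 RPKM (SD, n = 7) was higher than those of 10 of the 23 intact genes and was 0.847 ± 0.0913 times the rat's median intact gene (SD, n = 7). The ratio stayed below 1 in 7 of 7 rats. Its counts, 140 to 213 per rat, were whole in every rat, and it supplied 55.3% of the CPM of the pseudogenes. The model has 960 bases, a multiple of 3, and its class rests on its row among the pseudogenes, since the files give it no name.

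The next pseudogene was also without a name. ENSRNOG00000032672 (86664672–86665642, minus strand) had 0.940, 1.71 and 1.98 RPKM as its lowest, median and highest rat, with a mean of 1.61 ± 0.355 (SD, n = 7). Its counts held fractions of reads that mapped elsewhere in 7 of 7 rats, so that its own level is uncertain. The third, NG_Vom1rn-ps75 (86764756–86765710, plus strand), had 0.332, 0.436 and 0.645 RPKM, from whole counts of 21 to 46 per rat. It was the only detected pseudogene that the authors had named as one.

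Distances to an intact gene overlapped between detected and undetected pseudogenes of the cluster. The 3 detected ones lay 33.4 to 37.8 kb from the nearest intact gene. The 7 not detected lay 0.680 to 46.4 kb from it. NG_Vom1rn-ps77, a 141-base fragment on the opposite strand 0.680 kb from ENSRNOG00000031492, had no count in any rat, while ENSRNOG00000031492 had 2.45 ± 0.521 CPM (SD, n = 7). Fragments of this size offer fewer positions for a read of 100 nucleotides than a whole gene does, which limits what their 0 counts can show.

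A further pseudogene was seen in some rats and not in others. NG_Vom1rn-ps79 (86986091–86987016) had 5.5 to 11.5 counts in 5 rats and no count in rats 4 and 5, at totals of 67369354 and 70449854 counts. Fractional counts in 2 of the rats show that some of these reads were shared. NG_Vom1rn-ps80 had 1 to 9 whole counts per rat, and NG_Vom1rn-ps73 and NG_Vom1rn-ps76 had at most 0.83 of a count in any rat. The remaining 3 of the cluster with 0 counts were ENSRNOG00000038506, NG_Vom1rn-ps71 and NG_Vom1rn-ps77, and NG_Vom1rn-ps69 outside it also had none. A count of 0 allows 0.0400 to 0.0468 CPM in a single rat (3 counts).

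Intact genes exceeded pseudogenes of the same stretch in every rat. Mean log2(RPKM + 0.1) was 1.07 ± 0.225 over the 23 intact genes and -2.13 ± 0.0893 over the 11 pseudogenes (SD, n = 7). The difference was 3.20 ± 0.154 and positive in 7 of 7 rats (two-sided exact sign-flip permutation p = 0.0156, adjusted 0.0156 over 5 tests). The test compares these models in these rats. It does not treat models as replicates, and they varied among themselves with SDs of 1.96 and 1.78 on that scale. Between the detected models alone the difference was 1.02. Its size depended on the RPKM added before taking log2, at 1.48 with 1 added and 4.91 with 0.01 added. The median pseudogene, at -3.27, lay close to the lowest value that adding 0.1 allows. Pseudogenes held 5.75% ± 0.414 of the counts on the 34 models (SD, n = 7).

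The direction against intact V1R genes elsewhere depended on the average used. Against the 15 intact genes of chromosome 4 above 100 Mb, mean log2(RPKM + 0.1) was 1.07 ± 0.225 in the stretch and 1.41 ± 0.213 there (SD, n = 7), a difference of -0.34 ± 0.0447 and lower in 7 of 7 rats (exact permutation p = 0.0156, adjusted 0.0156). Among detected models alone the difference was -0.17. With medians over genes it turned to 0.16 (exact permutation p = 0.0625). With models of whole counts only, 4 against 4, it turned to 0.12 (exact permutation p = 0.0781). Against the 68 intact genes of chromosome 1, at 1.54 ± 0.231, the difference was -0.47 ± 0.0351 and lower in 7 of 7 rats (exact permutation p = 0.0156, adjusted 0.0156). Among detected models alone it was -0.34, and with models of whole counts only, 4 against 29, it was -0.36. With medians it turned to 0.05 (exact permutation p = 0.0156). The median RPKM of a rat was 2.47 to 4.12 for the intact genes of the stretch, 2.28 to 3.47 for those above 100 Mb and 2.46 to 3.99 for those of chromosome 1, so that the ranges overlapped. Both tests compare these models in these rats and do not treat models as replicates. On the log2 scale the genes varied with SDs of 1.96 in the stretch, 1.98 above 100 Mb and 1.88 on chromosome 1.

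Pseudogenes of the stretch lay above V1R pseudogenes elsewhere on average, but the difference rested on which models and which average were used. Mean log2(RPKM + 0.1) was -2.13 ± 0.0893 for the 11 and -2.73 ± 0.0518 for the 104 others (SD, n = 7). The difference of 0.60 ± 0.0514 was positive in 7 of 7 rats (exact permutation p = 0.0156, adjusted 0.0156). Among detected models alone, 3 against 13, it was 0.19 (exact permutation p = 0.0625). When pseudogenes with an Ensembl identifier only were left out on both sides it was -0.01 (exact permutation p = 0.797). With medians over models it was 0.04 (exact permutation p = 0.5). With 1 RPKM added in place of 0.1 it was 0.20, and with 0.01 added it was 1.14. Models are not replicates in these tests, and they varied among themselves with SDs of 1.78 and 1.29 on the log2 scale.

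**Figure D3:**
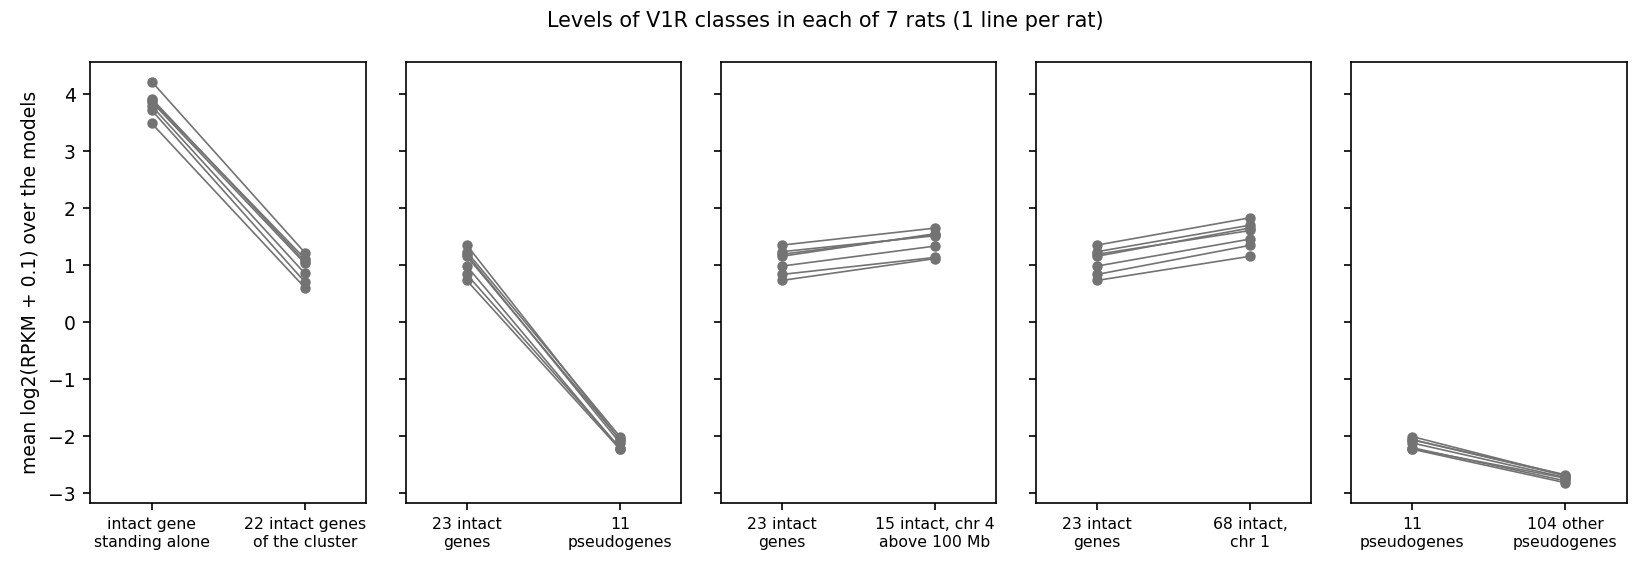
Mean log2(RPKM + 0.1) of classes of V1R models in each rat, 1 line per rat, with the class of the stretch on the left of each panel. The lone gene lies 2.90 above the 22 cluster genes and the intact genes 3.20 above the pseudogenes, while the 3 comparisons with V1R models elsewhere differ by 0.60 or less in size.

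From rat to rat the intact genes of the stretch moved with the rest of the family. Their summed level was lowest in rat 6, at 59.1 CPM, and highest in rat 7, at 98.7 CPM, with a mean of 79.7 ± 13.3 CPM (SD, n = 7). The 86 other intact genes were likewise lowest in rat 6, at 324 CPM, and highest in rat 7, at 540 CPM. Over the 7 rats the sums were related with Pearson's r = 0.992 (two-sided exact permutation p = 0.000397) and Spearman's rho = 0.964 (exact permutation p = 0.00278), the only relation across rats computed, so that no adjustment applies. Without rats 6 and 7, the rats farthest from the median sum of the 86 other genes, r was 0.974 over 5 rats. Both sums come from the same libraries and share their totals.

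**Figure D4:**
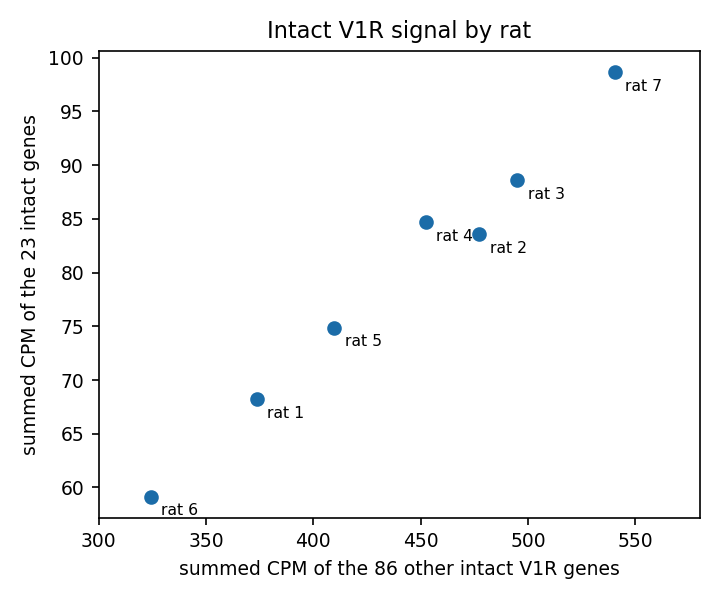
Summed CPM of the 23 intact genes (vertical) against that of the 86 other intact V1R genes (horizontal), 1 point per rat. Rat 6 is lowest and rat 7 highest on both axes, and the points follow a line with r = 0.992.

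Single genes of the stretch shared this movement. Of the 21 detected intact genes 12 were lowest in rat 6 and 7 in rat 1, and 14 were highest in rat 7. Their coefficient of variation (CV) over rats had a median of 20.2% in CPM (15.7% to 33.9%). Relative to the summed level of the other intact genes of the stretch in the same rat, the median CV was 9.97% (4.13% to 29.7%), and it was lower than the CV of the CPM for 20 of the 21 genes. Counting error alone gives a median of 6.67% at these depths. The exception was ENSRNOG00000034112, the lowest detected gene, with 18.2% in CPM and 29.7% relative to the others.

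The order of the 23 intact genes was much the same in all animals, with Spearman's rho between 0.961 and 0.997 across genes for the 21 pairs of rats. Genes are not independent replicates, and the rats share one inbred strain. A fit of all 16670 detected models with edgeR gave the 21 detected intact genes a median biological coefficient of variation of 17.4% (11.8% to 26.5%), against 16.3% for the 81 other detected intact V1R genes and 10.5% for all models fitted. With no filter on low counts the order against all models turned round, at 19.6% for the 21 genes, 18.0% for the 81 others and 22.7% for all 29630 models. In the fit of detected models ENSRNOG00000030085 had the lowest of the 21, at 11.8%. Without rat 6 the medians in that fit were 14.4% for the 21 genes and 13.8% for the 81 others.

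**Figure D5:**
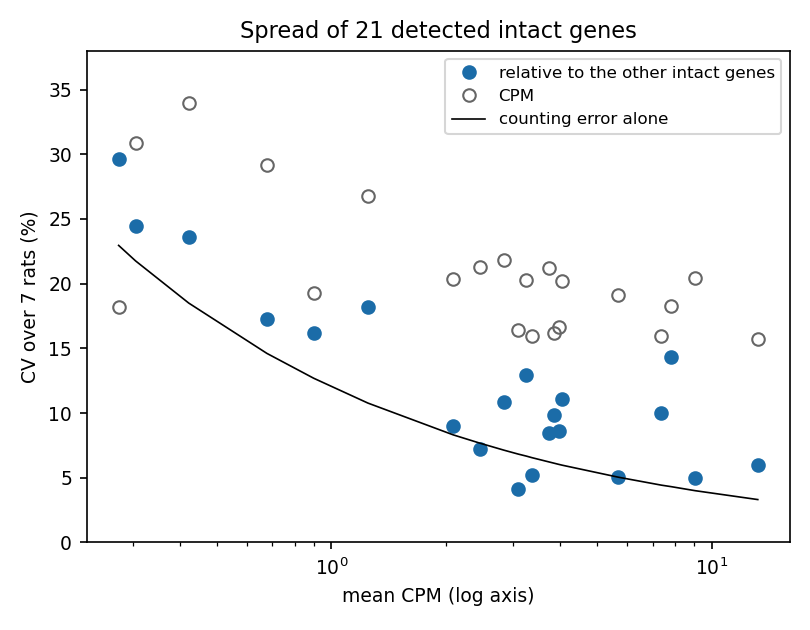
Coefficient of variation over 7 rats (%) of the 21 detected intact genes against their mean CPM (log axis), as filled circles relative to the summed other intact genes of the stretch, as open circles for CPM, and as a line for counting error alone. Open circles lie between 15.7% and 33.9%, and the filled ones are lower for 20 of the 21 genes and closer to the line.

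Shared reads touched most of the intact genes, but unevenly. In 18 of the 23 a fractional count appeared in at least 1 rat, in 6 of them in only 1 or 2 rats and in 5 of them in at least 5 rats. ENSRNOG00000032905, with 6 rats, was touched most often, and ENSRNOG00000031729 had a fraction in 1 rat only. Whole counts above 0 were found for ENSRNOG00000030085, ENSRNOG00000032743, ENSRNOG00000029806 and ENSRNOG00000029435. No model of the stretch had the same counts in every rat as another V1R model, beyond those at 0. Counts were taken as whole or equal within a tolerance of 1e-06. The fractions give no measure of how many reads were shared.

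Only 2 models outside the V1R block fell inside the cluster, and both were looked up after their values had been seen. ENSRNOG00000006436 (86171019–86171942, minus strand, 1 exon of 924 bases) had 17.3 ± 1.61 CPM (SD, n = 7). It lay 675 bases from ENSRNOG00000031323, the intact gene without a count, and on the opposite strand. In RPKM it exceeded the highest V1R model of the stretch in 7 of 7 rats, by 1.17-fold to 1.53-fold, and its counts held fractions in 5 rats. ENSRNOG00000010455 (86503797–86574544, minus strand, 6 exons) had 0.00805 CPM and spans ENSRNOG00000031077, ENSRNOG00000033985 and NG_Vom1r4x2. It runs opposite to the first pair and on the strand of NG_Vom1r4x2. The files give neither a name.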

How the data were processed

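Libraries were polyA-selected and read as stranded single ends of 100 nucleotides, per the labels' protocols. The submitters' processing notes name STAR 2.7.1a (an aligner) and featureCounts 1.6.5 (a read counter), and featureCounts is version 1.6.3 per the file headers. The deposited files hold estimated counts for models on RGSC3.4 (Ensembl release 67, extended by the authors), counted by strand, with reads mapped to several places added as fractions and no minimum mapping quality (0), per the file headers. A copy without transcripts may therefore receive part of the reads of its twin.

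CPM and RPKM were computed here from those counts, each library's total and the deposited model length. Levels were compared within rats as mean log2(RPKM + 0.1), which compresses differences between low models, by two-sided exact sign-flip tests over the 7 rats at a threshold of 0.05, with Benjamini-Hochberg adjustment. Standing alone meant no other intact V1R gene within 500 kb. Dispersions came from edgeR 4.0.16 (R 4.3.3; TMM factors, intercept-only, counts rounded), which draws single values towards the trend; size factors of DESeq2 1.42.0 served as an alternative. Also used were Python 3.11.15, numpy 2.4.6, scipy 1.17.1, pandas 2.3.3 and matplotlib 3.10.9. The level tests and the dispersion fit were run on simulated data. In the simulation for the level tests all genes had the same mean apart from the set difference, unlike the real genes. It therefore does not show how those tests behave at the spread of levels seen here. The rats are taken as separate animals, per the labels.

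Genes were named by rule: the 10 highest intact genes by CPM, intact genes that were not detected or stand alone, and detected pseudogenes (no counted member had the same counts as another V1R model). Other names were chosen after their values were seen. The members, lists and tests were chosen with earlier results of these data known. Of the 34 identifiers 0 matched a symbol in the RefSeq table (47357 genes), so that no sequences are shown.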

Additional observations from a re-analysis of the deposited data

Results flagged for a closer look

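Among 36 values screened for a single outlying rat, 2 were picked out by Dixon's test at its 95% critical value, where chance gives about 1 in 20. ENSRNOG00000029435 had 0.0445 CPM in rat 4, from 3 counts, and 0 to 0.0156 CPM in the other rats. NG_Vom1rn-ps76 had 0.00755 CPM in rat 6, from 0.5 of a count, and 0 in the others. Both rest on 3 counts or fewer. The rate of 1 in 20 is for continuous values and does not hold for counts this low.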

How the results depend on the processing

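Of 138 alternative values, 123 were labelled as unchanged, and many of the 138 only left out a single rat. For tests, unchanged meant the same sign and call. For shares it meant a mean within the SD over rats, and for detections a count within a set fold. For variability it meant a median within its leave-one-out standard error. That error came from the same leave-one-out medians that it judged, so a change of label was unlikely for them. The cause of the other changes was not tested except where stated. The level against intact genes of chromosome 4 above 100 Mb (-0.34) reversed to 0.12 with whole counts only and to 0.16 with medians, and that against chromosome 1 (-0.47) to 0.0499 with medians. The level of pseudogenes against others (0.60) reversed to -0.00897 without pseudogenes with an Ensembl identifier only, and lost the call among detected models (0.19, exact permutation p = 0.0625) and with medians (0.0407, exact permutation p = 0.5). The share of intact V1R counts (15.4%) moved to 15.8% on counts divided by length, 13.1% with whole counts only and 13.2% without the lone gene; the share of all counts (0.00845%) moved to 0.00993%, 0.00706% and, without the 10 most abundant models, 0.0155%, through the smaller total. Detected intact genes moved from 21 to 3 with whole counts only, through fewer models; detected pseudogenes moved from 3 to 5 with a minimum of 3 counts and to 1 without those with an Ensembl identifier only. Intact against pseudogene levels lay between 1.02 and 5.04, and the lone gene against the others between 2.13 and 4.29, over all alternatives. Each rat left out in turn gave no other call. For the 5 level tests this was fixed in advance, since all 7 rats had the same direction. The shares could not move either, since 1 rat of 7 shifts a mean by less than the SD over rats. Subsets by identifier, length, cluster or lone gene were chosen after seeing the data.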
